A study of Mus musculus with 6 samples.

Results

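The Polycomb and trithorax group genes considered here are 40 genes. They encode subunits of Polycomb repressive complexes 1 and 2, a histone H2A deubiquitinase and its cofactor, demethylases of histone H3 lysine 27, and core MLL/COMPASS subunits. Every probe set that the platform annotation assigns to 1 gene only, that gene being among the 40, was taken, which gave 99 of the 45101 probe sets and 39 of the 40 genes. Rybp, a subunit of variant PRC1, was left without a value because its probe sets are annotated to a pseudogene as well. Of the 99 probe sets, 77 had enough signal to be tested (an intensity of at least 16 on at least 3 of the 6 arrays), and these represent 37 genes. Phf19, a PRC2 accessory factor, and Cbx8, a chromodomain subunit of PRC1, did not pass this filter on any probe set. RNA was taken from 2 genotypes of mouse embryonic stem cell, the wild-type line E14K and cells carrying Gsk-3a-/- and Gsk-3b-/- together (called DKO below), with 3 arrays each. Both genotypes were cultured on gelatin with no feeder layer, in serum and leukaemia inhibitory factor, and no agent was added to either. The labels name 1 wild-type line, do not say how many DKO clones were used, and do not say whether replicates were separate cultures, so effects of the line cannot be told apart from those of the deletions, and a p-value here speaks only of the spread among these arrays, which may be technical.

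Polycomb repressive complex 2 (PRC2) methylates lysine 27 of histone H3, and Polycomb repressive complex 1 (PRC1) ubiquitinates histone H2A and compacts chromatin. Trithorax group proteins, among them the MLL/COMPASS complexes that methylate lysine 4 of histone H3, counteract them. In embryonic stem cells both systems act on the CpG-rich promoters of developmental regulators, which are held at low expression until differentiation. Gsk-3 restrains Wnt/beta-catenin signalling and acts downstream of PI3K.

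No Polycomb or trithorax member passed the unpaired test for a difference between DKO and wild-type cells, and most were measured at nearly the same level in both. With the replicate number as a block, which pairs same-numbered arrays, 2 of 77 member probe sets passed, both of Kdm6a and lower in DKO, and 0 of 37 genes on their brightest probe sets. Without that block, by limma with Benjamini-Hochberg adjustment over all 20841 tested probe sets, 0 of the 77 member probe sets and 0 of the 37 member genes passed an adjusted p of 0.05, against 3.24% of all tested probe sets and 4.13% of all 10496 tested genes (each gene read on its brightest tested probe set). At an unadjusted p under 0.05 there were 4 member probe sets and 2 member genes, against 13% and 14.7% of all. The lowest adjusted p among the members was 0.122, on a probe set of Kdm6a. The members with the lowest p-values were Kdm6a, an H3K27 demethylase, and Phc1, a polyhomeotic subunit of canonical PRC1, both lower in DKO by a factor of 1.55 to 1.87 on their tested probe sets.

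Since these 2 genes had the lowest p-values among the members, the 250 bases before their transcription starts are printed, from the RefSeq promoter table (GRCm38.p6). Capitals mark matches to the motifs searched, which were CTTTGAT and CTTTGAA (bound by TCF/LEF factors), CACGTG (the E-box) and GGCGGGAA (bound by E2F factors), each on both strands.
Phc1 (chr6:122340228-122340477, minus strand): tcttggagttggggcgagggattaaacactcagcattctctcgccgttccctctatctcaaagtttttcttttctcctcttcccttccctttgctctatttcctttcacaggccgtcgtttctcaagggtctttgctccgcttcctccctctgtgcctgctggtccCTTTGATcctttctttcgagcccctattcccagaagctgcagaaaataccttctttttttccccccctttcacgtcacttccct
Kdm6a (chrX:18162325-18162574, plus strand): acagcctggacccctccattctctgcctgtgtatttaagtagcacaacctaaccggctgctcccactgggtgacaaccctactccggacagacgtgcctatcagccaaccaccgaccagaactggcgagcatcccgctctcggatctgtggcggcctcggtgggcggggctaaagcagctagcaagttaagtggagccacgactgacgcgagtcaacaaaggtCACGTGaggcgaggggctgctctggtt
The Phc1 stretch holds 1 CTTTGAT, 84 bases before the start, and 8 CpG pairs. The Kdm6a stretch holds 1 CACGTG, 27 bases before the start, and 15 CpG pairs. A match describes the letters only and does not show binding. The table held 51 windows of 300 bases (250 before and 50 after a start) for 34 of the 40 members, since some genes have several starts; Ash2l, Cbx2, Kdm6b, Pcgf1, Rybp and Yaf2 had none. CTTTGAT occurred in 1 of the 51 member windows (1.96%), that of Phc1, against 3.73% of all 32851 windows. CTTTGAA occurred in 1 (1.96%), that of Suz12, against 5.14%. CACGTG occurred in 9 (17.6%) against 7.15%, and GGCGGGAA in 3 (5.88%) against 2.19%. These last 2 motifs each hold a CpG pair and the TCF/LEF motifs do not, and windows of equal CpG content were not compared. The member windows were rich in CpG, with a median of 23 CpG pairs per window against 7 over all windows, and 32 of them (62.7%) held at least 20 against 26.5% of all. The table also holds non-coding and predicted genes, and windows of 1 gene can overlap.

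**Figure D1:**
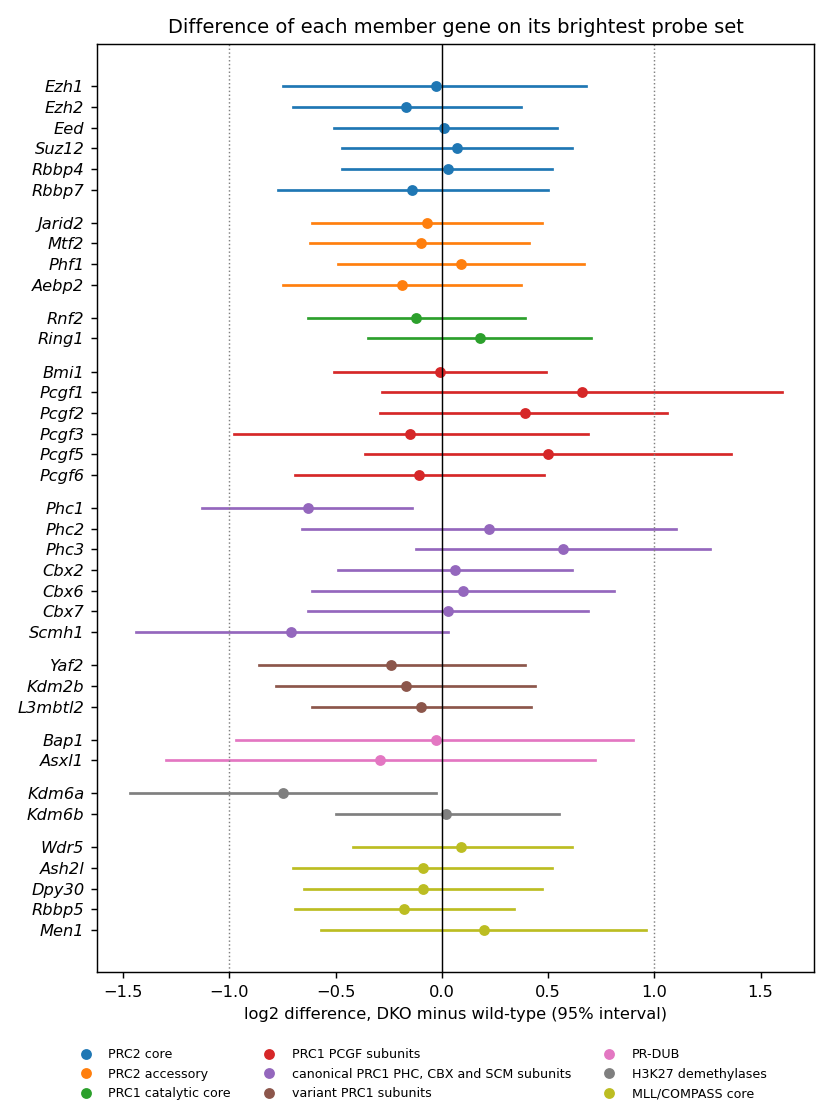
Log2 difference between DKO and wild-type for the 37 tested member genes, each on its brightest tested probe set, grouped by complex. Points are fitted differences and lines their 95% intervals, both from the fit without a block. Dotted lines mark a 2-fold difference. The intervals of Phc1 and Kdm6a lie wholly below 0, and 28 of the 37 intervals lie within the dotted lines.

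The samples themselves were compared first. Gsk3a read 145, 135 and 66 in DKO and 403, 238 and 239 in wild-type cells (intensities, replicates 1 to 3). The 3 DKO values are the lowest, with a log2 difference of -1.38 (SE 0.36) that did not pass (adjusted p = 0.0942) except with the replicate number as a block (adjusted p = 0.00646) or replicate 3 set apart from replicates 1 and 2 by a block (adjusted p = 0.0223). None of the 5 tested Gsk3b probe sets passed (differences of -0.71 to -0.02), and where these probe sets lie in the genes is not known here, so they check the labels in part at best. Spike-in controls averaged log2 values of 10.18 and 10.53 on the replicate 3 arrays of DKO and wild-type and 1.64 to 1.85 on the others, so the replicate 3 arrays, which hold both genotypes, were also set apart by a block. The labels name no batch, and what set these arrays apart is not known here. The log2 ratio of 3' to 5' signal of 3 control transcripts, which rises as RNA gets shorter, averaged 2.20 ± 0.32 (SD, n = 3) in DKO against 1.98 ± 0.33 in wild-type and was higher in DKO in each same-numbered pair; its part in any result was not tested. All 15 stem cell markers (such as Pou5f1, Sox2 and Nanog) were above the filter on at least 1 array, with summed intensities of 37238 to 41215 in DKO and 40051 to 42116 in wild-type. Summed fibroblast markers ran from 1822 to 2634 and 1259 to 2184 (Col3a1, Lum and Postn under 16 on all arrays), extraembryonic endoderm markers from 11197 to 16264 and 7299 to 14592 (Afp, Ttr and Apoa1 under 16), trophoblast markers from 5125 to 7956 and 4374 to 7893 (Elf5, Hand1 and Tpbpa under 16), and neural progenitor markers from 182 to 546 and 425 to 781 (Olig2 under 16). Single markers differed strongly within these sums. The trophoblast marker and Wnt target Cdx2 rose from 99, 104 and 103 in wild-type to 1307, 2073 and 1920 in DKO cells (log2 difference 4.09, adjusted p = 9.71e-05), and the neural marker Pax6 fell, as described below. Of 5 tested trophoblast markers Cdx2 was the 1 that passed, 2 were higher with the replicate number as a block, and 2 were below 0. Of their 11 tested probe sets 2 passed as higher in DKO and 1 as lower. Among 6 tested neural markers Pax6 was the 1 that passed, and 4 were lower once the replicate number was a block. Their part in the member values was not tested, and in bulk RNA fewer cells of a type and less RNA per cell cannot be told apart.

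The differences of the members were small beside those of the other genes. The median absolute log2 difference was 0.119 over the 37 member genes and 0.247 over all tested genes, and the median signed difference was -0.034 against -0.003. The difference was under 0.2 in size for 27 of the 37 genes. The largest on any member probe set was 0.9, and 0 member probe sets reached a fitted 2-fold difference, against 7.13% of all tested probe sets. Intensity was not matched in these comparisons. A stricter filter (log2 value of at least 6 on at least 3 arrays) kept 66 of the 77 member probe sets. It kept 14457 of all 20841, so the members were more often bright. The part of intensity in the smaller differences was not tested. Of the 37 genes, 21 were below 0 and 16 above 0. On 10 of 77 member probe sets (13%) the genotypes did not overlap, where the share over all tested probe sets was 16.7%. DKO was lower on 7 of these and higher on 3, against background shares of 9.17% and 7.57%. Counted by gene this was 3 of 37 (8.11%), Phc1, Scmh1 and Kdm6a, all lower in DKO, against 18.9% of all genes in either direction and 10.4% lower.

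**Figure D2:**
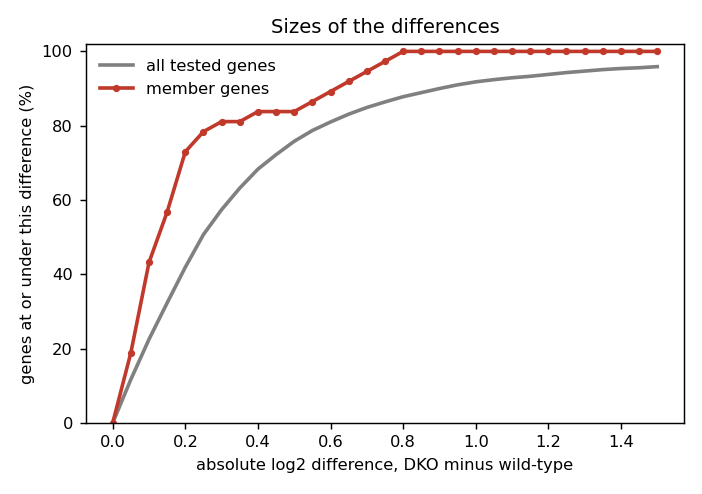
Share of genes (%) whose absolute log2 difference between DKO and wild-type is at or under the value on the x axis, for the 37 member genes (red) and all 10496 tested genes (grey). At a difference of 0.2 the curves stand at 73% and 41.9%, and at 0.5 at 83.8% and 75.8%.

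A test that is not passed does not show equal levels, so the precision matters. The 95% interval of the difference had a median reach of 0.61 log2 units to either side over the member probe sets and ran from 0.5 to 1.01. For 28 of the 37 genes (75.7%) the whole interval lay within a 2-fold difference either way. The same held for 57.5% of all tested genes, with intensity not matched. The other 9 genes, whose intervals reach further, are Pcgf1, Pcgf2, Pcgf5, Phc1, Phc2, Phc3, Scmh1, Asxl1 and Kdm6a. In the fit without a block, the smallest difference that passed on any probe set was 1.01.

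The PRC2 core was the most even group. Ezh2, the main H3K27 methyltransferase of dividing cells, read 1269, 1561 and 1722 in DKO and 1578, 1631 and 1872 in wild-type cells. The ranges overlap, and the log2 difference was -0.17 with a 95% interval of -0.70 to 0.37 (adjusted p = 0.875). Its paralogue Ezh1 was dim in both genotypes, at 48, 29 and 26 against 45, 27 and 32, with a difference of -0.03 (95% interval -0.75 to 0.68). Eed, which binds methylated lysine 27 and stimulates the enzyme, read 3264, 3081 and 2952 against 2550, 3412 and 3309. Its difference was 0.01, with an interval of -0.51 to 0.54. Suz12, the scaffold of the complex, had 6 tested probe sets with differences between -0.03 and 0.07, closer together than the 6 of Mtf2. Rbbp4 and Rbbp7, histone-binding subunits shared with other complexes, did not pass either. Rbbp4 differed by 0.03 on its brightest probe set, and of its 4 tested probe sets 3 were below 0 (-0.21 to 0.03 over all). Rbbp7 differed by -0.14 and -0.01 on its 2 probe sets. Over the 6 core genes the median difference was -0.01, and all 6 intervals lay within a 2-fold difference.

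The accessory subunits that guide PRC2 to chromatin were likewise close to wild-type. Jarid2, a cofactor that helps recruit PRC2 in stem cells, read 3374, 3603 and 2728 in DKO and 3116, 3856 and 3197 in wild-type cells. Its difference was -0.07 (interval -0.61 to 0.47), and its 3 tested probe sets lay between -0.10 and 0.00. Mtf2, a Polycomb-like protein that binds CpG-rich DNA, had 6 tested probe sets between -0.26 and 0.19. Phf1, another Polycomb-like protein, differed by 0.09. Aebp2, a zinc-finger cofactor, was below 0 on all 4 tested probe sets (-0.45 to -0.16). On 1 of them the DKO arrays, at 199, 232 and 194, lay below the wild-type arrays, at 300, 245 and 312, without passing (adjusted p = 0.482). Phf19, the Polycomb-like protein without a tested probe set, read between 3 and 11 on every array, a range in which rounding to whole numbers leaves little to compare.

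Among the PRC1 catalytic subunits, Rnf2 (RING1B), the main H2A ubiquitin ligase of stem cells, read 1569, 1961 and 1598 in DKO and 1789, 1879 and 1873 in wild-type cells, a difference of -0.12 (interval -0.63 to 0.39). The other tested probe set of Rnf2 read 955, 1996 and 1834 against 1937, 1995 and 1708. It differed by -0.31 (interval -1.01 to 0.40), with DKO replicate 1 the low array. Ring1, the paralogue of Rnf2, was dim, at 29, 24 and 27 against 25, 20 and 26, and differed by 0.18. Neither passed.

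The PCGF proteins, which pair with RING1 proteins and define the kinds of PRC1, varied more. Pcgf1, of the variant complex that contains KDM2B, read 115, 73 and 153 in DKO and 43, 63 and 120 in wild-type cells. DKO was higher in each same-numbered pair, by 1.42, 0.21 and 0.35, but the ranges overlap and the difference of 0.66 (SE 0.41) did not pass (adjusted p = 0.613, and 0.175 with the replicate number as a block). Without wild-type replicate 1 the difference of Pcgf1 was 0.32, and without wild-type replicate 3 it was 1.06. Pcgf2 (MEL18), of canonical PRC1, differed by 0.39 on 1 probe set and 0.26 on the other. On the latter the DKO arrays, at 149, 150 and 123, all lay above the wild-type arrays, at 122, 117 and 111 (adjusted p = 0.748). Pcgf5 had probe sets at 0.50 and -0.18, and Pcgf3 at -0.15 and 0.08, so the direction of these genes depends on the probe set. Bmi1 (PCGF4), of canonical PRC1, differed by -0.01 (interval -0.51 to 0.49) on its brighter probe set and 0.26 on the other. Pcgf6, of the variant complex that silences germline genes, was below 0 on all 3 tested probe sets (-0.40 to -0.11, the brightest at -0.11). By limma 0 of these 6 genes passed.

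Phc1 had the lowest p of the 37 genes read on their brightest probe sets. PHC proteins carry a SAM domain through which canonical PRC1 polymerises. The single probe set of Phc1 read 1527, 1762 and 1554 in DKO and 2425, 2432 and 2654 in wild-type cells, or log2 values of 10.65 ± 0.11 and 11.29 ± 0.07 (SD, n = 3). All DKO arrays lay below all wild-type arrays, and the same-numbered pairs differed by -0.67, -0.46 and -0.77. The difference was -0.63 (SE 0.22, 95% interval -1.13 to -0.14, unadjusted p = 0.0177) and did not pass by limma (adjusted p = 0.22, and 0.0899 with the replicate number as a block). A two-sided exact permutation test gives p = 0.1, the smallest that 3 arrays against 3 allow. The other polyhomeotic genes were above 0 on their brightest probe sets. Phc3 read 226, 143 and 112 against 124, 93 and 96, a difference of 0.57 (adjusted p = 0.509), and Phc2 differed by 0.22 and -0.14 on its 2 probe sets. Differences between the Phc genes were not tested.

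The chromodomain subunits that bind methylated lysine 27 were near wild-type on their brightest probe sets. Cbx7, the main CBX protein of undifferentiated stem cells, read 152, 171 and 210 in DKO and 155, 135 and 246 in wild-type cells, a difference of 0.03 (interval -0.63 to 0.69). On the dimmest of its 3 tested probe sets it read 22, 21 and 16 against 14, 13 and 15. It was under the filter on every wild-type array there and was tested only through its DKO values, and it did not pass (adjusted p = 0.458). Cbx2, which accumulates as stem cells differentiate, differed by 0.06. Cbx6 differed by 0.10 on its bright probe set (838, 1062 and 1705 against 996, 915 and 1355) and by 0.73 on the dim one (63, 55 and 63 against 38, 23 and 55, adjusted p = 0.394). Cbx8 read between 4 and 12 on every array. Scmh1, a Sex comb on midleg homologue that associates with PHC proteins, read 49, 49 and 42 in DKO and 72, 51 and 120 in wild-type cells. The groups do not overlap, but the high value of wild-type replicate 3 carries much of the difference, which was -0.71 with all arrays (adjusted p = 0.408) and -0.38 without that array. The 2 other probe sets of Scmh1, not tested, were also highest on wild-type replicate 3, at 29 and 31 against 5 to 10 elsewhere.

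**Figure D3:**
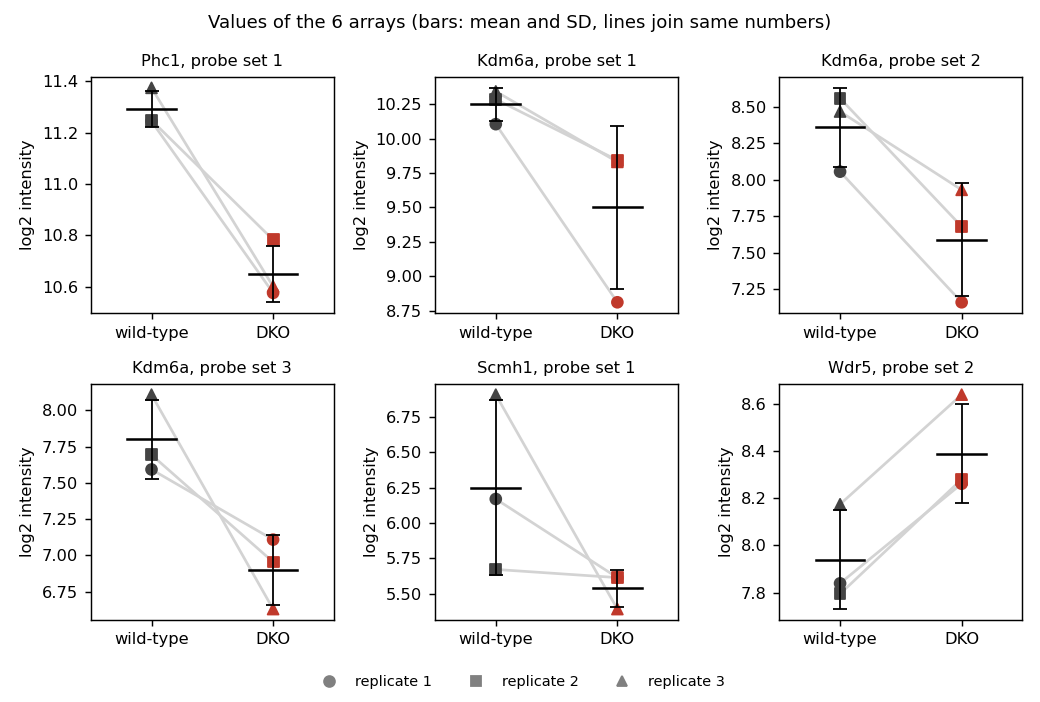
Log2 intensity on each array for Phc1, the 3 tested probe sets of Kdm6a (numbered from the brightest), Scmh1 and the dimmer probe set of Wdr5. Symbols give the replicate number, grey lines join arrays of the same number, and bars are the mean and SD of 3 arrays; each panel has its own y range. In all 6 panels the genotypes do not overlap, DKO being lower in 5 and higher for Wdr5, and 0 of the 6 passed the test.

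The 3 measured subunits particular to variant PRC1 were slightly below 0 on their brightest probe sets, and 0 passed. Kdm2b, which brings PRC1 to unmethylated CpG islands, read 1665, 2909 and 2328 in DKO and 2401, 2845 and 2343 in wild-type cells. DKO replicate 1 was the low array, and the difference was -0.17 (interval -0.78 to 0.44). Its second probe set showed the same array low, at 890 against 2018 and 2061 on the other DKO arrays, and differed by -0.25. Yaf2, the homologue of Rybp, had probe sets at -0.24 and 0.16, and L3mbtl2, of the variant complex with PCGF6, differed by -0.10. DKO replicate 1 was the lowest of the 6 arrays on 25 of the 77 member probe sets (32.5%, against 23.5% of all tested probe sets). Wild-type replicate 1 was the highest on 2 (2.6%, against 15.1%).

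Bap1, the H2A deubiquitinase that removes the PRC1 mark, varied widely among DKO arrays. It read 506, 1062 and 1651 in DKO and 926, 819 and 1253 in wild-type cells, a difference of -0.03 with an interval of -0.97 to 0.90. Its second probe set, at 197, 145 and 226 against 131, 130 and 205, differed by 0.30. Asxl1, the cofactor that activates BAP1, was below 0 on all 3 tested probe sets (-0.29, -0.40 and -0.54). Its brightest read 1094, 1493 and 522 against 1693, 1316 and 702, low on replicate 3 in both genotypes. Bap1, Asxl1, Pcgf1, Pcgf3, Phc2 and Cbx6 were the 6 member genes for which replicate 3 departed from replicates 1 and 2 by at least 0.5 log2 units in the same direction in both genotypes. Neither Bap1 nor Asxl1 passed, with or without replicate 3 set apart.

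Kdm6a (UTX), an X-linked demethylase that removes methylation of lysine 27 and also belongs to the MLL3 and MLL4 complexes, was lower in DKO on each of its 3 tested probe sets. The brightest read 449, 919 and 911 in DKO and 1102, 1249 and 1300 in wild-type cells, a difference of -0.75 (SE 0.32, interval -1.47 to -0.03, adjusted p = 0.347). DKO replicate 1 was the low array there, and without it the difference was -0.41. The next brightest read 143, 205 and 244 against 266, 377 and 354, a difference of -0.77 (SE 0.28, adjusted p = 0.255). The dimmest read 138, 124 and 99 against 193, 207 and 276, a difference of -0.90 (SE 0.26, interval -1.48 to -0.32, adjusted p = 0.122). On all 3 the DKO arrays lay wholly below the wild-type arrays, and DKO replicate 1 was the lowest array on the brighter ones but the highest DKO array on the dimmest. The next brightest and the dimmest passed with the replicate number as a block (limma, adjusted p = 0.0465 and 0.0466) and the brightest did not (adjusted p = 0.0829). With that block 2 of 77 member probe sets passed, both lower, where 9.57% of all tested probe sets passed and 5.26% passed as lower, and 0 of 37 member genes passed, against 10.7% of all genes. With replicate 3 set apart by a block none of the 3 passed (lowest adjusted p = 0.0791). Within replicates 1 and 2 alone the differences were -0.87, -0.89 and -0.61 from the brightest to the dimmest, and in replicate 3 they were -0.51, -0.54 and -1.48. The probe sets share the RNA of the same 6 arrays and are not independent samples. Kdm6b (JMJD3), the autosomal H3K27 demethylase, read 1814, 1525 and 1370 against 1620, 1589 and 1401, a difference of 0.02 (interval -0.50 to 0.55).

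The shared core of the MLL/COMPASS methyltransferases was even as well on the brightest probe sets. Wdr5, the subunit that binds the histone tail and the MLL enzymes, read 2119, 1949 and 1683 in DKO and 1799, 1661 and 1913 in wild-type cells, a difference of 0.09. On its dimmer probe set DKO, at 307, 311 and 399, lay above wild-type, at 229, 222 and 289, by 0.46 (interval -0.09 to 1.01, adjusted p = 0.502). Ash2l (-0.09, and -0.32 on its dimmer probe set), Dpy30 (-0.09) and Rbbp5 (-0.18) complete the core. Men1, menin, which belongs to the MLL1 and MLL2 complexes, differed by 0.20. On the brightest probe sets all 5 intervals lay within a 2-fold difference, and 0 of the 7 tested probe sets passed.

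Probe sets of the same gene mostly gave similar values. Of 23 genes with more than 1 tested probe set, the differences spanned under 0.3 log2 units in 15 and at least 0.5 in 2, Pcgf5 and Cbx6. All probe sets pointed the same way in 13 genes and both ways in 10. The 22 untested member probe sets reached an intensity of at most 31 on any array.

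**Figure D4:**
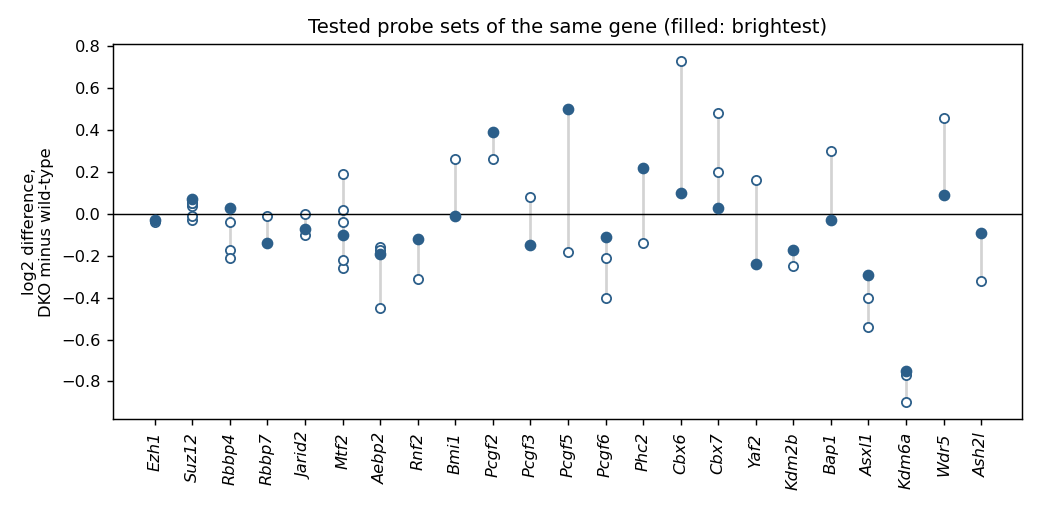
Log2 difference between DKO and wild-type on each tested probe set of the 23 member genes with more than 1; the brightest is filled and a grey line spans the gene. The 3 probe sets of Kdm6a lie together between -0.90 and -0.75, while those of Pcgf5 and Cbx6 are 0.68 and 0.63 apart.

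Other genes of the same pathways, from lists written from general knowledge, were tested in the same fit. Of 16 tested H3K4 methyltransferase and partner genes 1 rose and 0 fell. That gene was Ncoa6, a coactivator in the MLL3 and MLL4 complexes, at 509, 581 and 454 in DKO and 270, 231 and 240 in wild-type cells. Its difference was 1.06 (SE 0.23, adjusted p = 0.0432), and leaving out any single array ended the call (adjusted p = 0.0658 to 0.195 over 6 fits). By limma 0 genes passed among 8 further PRC2 partners (1 at an unadjusted p under 0.05), 18 further PRC1 partners (1), 10 H2A deubiquitinase partners and enzymes (3), 13 H3K4 and other histone demethylases (3) and 24 SWI/SNF subunits (1). With the replicate number as a block there was 1 call in each of these 5 lists and in the H3K4 methyltransferase list. Across all tested genes 1.64% rose and 2.5% fell without the block, 10.7% passed with it, and 14.7% had an unadjusted p under 0.05. The median differences of these 6 lists lay between -0.28 and -0.05.

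Developmental regulators known to be bound by Polycomb in embryonic stem cells, the genes on which these complexes act, were more varied. Hox and Cdx genes were left out of this list. Of 86 with a probe set 33 were tested, and the other 53 did not pass the filter. Of the 33, 2 rose, 4 fell and 27 did not pass, where 1.64% of all tested genes rose and 2.5% fell. With the replicate number as a block 7 rose and 4 fell (5.07% and 5.63% of all genes with that block). Pax6, a regulator of eye and neural development, fell from 191, 140 and 203 in wild-type to 19, 10 and 21 in DKO cells, a log2 difference of -3.47 (SE 0.33, adjusted p = 0.000826). Wt1, a zinc-finger factor of kidney and gonad, fell from 140, 313 and 148 to 13, 19 and 27 (log2 difference -3.31, adjusted p = 0.00211). Neurod1, a neurogenic factor, fell from 58, 112 and 51 to 10, 19 and 22 (log2 difference -2.10, adjusted p = 0.0228). The DKO values of Pax6, Wt1 and Neurod1 lie near the filter of 16, so the sizes of these falls are uncertain. Over the alternative fits they ran from -3.67 to -2.57 for Pax6, -3.74 to -2.53 for Wt1 and -2.55 to -1.40 for Neurod1. Bmp7, a secreted growth factor, rose and was at least 2.02-fold higher (34, 29 and 34 against 12, 6 and 10, adjusted p = 0.0112). It was under the filter on every wild-type array and was tested only through its DKO values, so its p-value adds no separate support. The other gene that rose was Irx2, at 98, 111 and 140 against 26, 43 and 47 (limma adjusted p = 0.0202), above the filter on every array. The remaining gene that fell was Meis1, at 14, 15 and 19 against 38, 33 and 34 (limma adjusted p = 0.0343). No alternative processing was examined for Irx2 and Meis1 beyond the block. The call of Neurod1 was lost when DKO replicate 1, DKO replicate 2 or wild-type replicate 2 was left out (adjusted p up to 0.113), as was that of Bmp7 without DKO replicate 1 (adjusted p = 0.0801). With no filter on low values the calls of Wt1 (adjusted p = 0.0653), Neurod1 (0.189) and Bmp7 (0.0918) were lost. Neural progenitor markers, of which Pax6 is 1, summed to 182 to 546 in DKO and 425 to 781 in wild-type, and their part in this list was not tested. The median difference over the 33 tested genes was 0.58, against -0.003 over all tested genes, and it was 0.40 over replicates 1 and 2 and 0.77 in replicate 3. Gata4, Gata6, Sox17, Sox7 and Foxa2 of this list are also extraembryonic endoderm markers. Of 11 tested markers of that kind 8 were above 0 and 3 below, with a median of 0.67 (0.15 over replicates 1 and 2 and 2.08 in replicate 3). By gene 0 passed, and 1 rose with the replicate number as a block. Of their 22 tested probe sets 1 passed as higher without the block. The part of these markers in the list's median was not tested. A gene that passes the filter in 1 genotype only has to differ, so neither the counts nor this median describe the whole list.

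**Figure D5:**
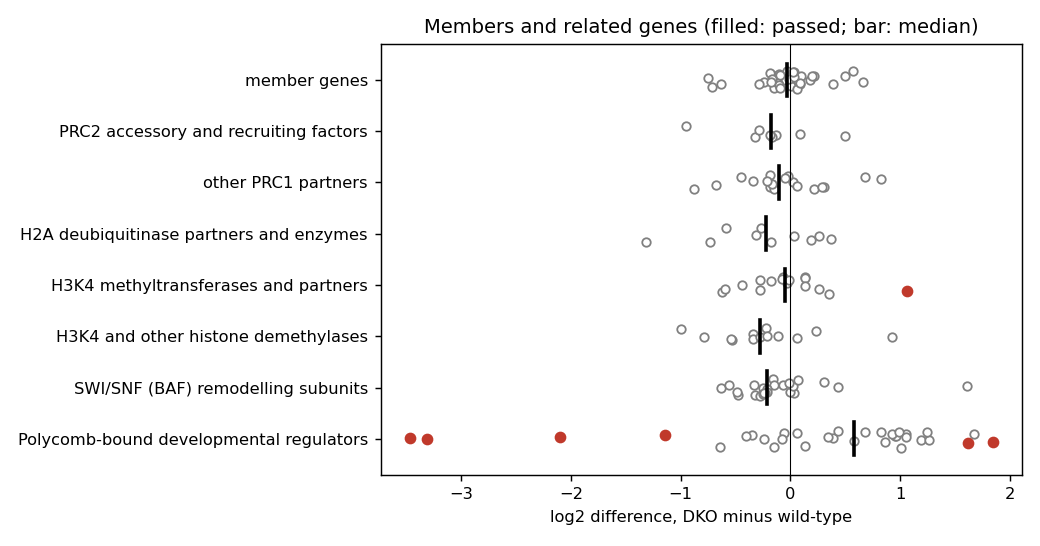
Log2 difference between DKO and wild-type for the 37 member genes and the tested genes of 7 related lists, 1 point a gene on its brightest tested probe set. Filled points passed the adjusted p of 0.05 and black bars are list medians; points are spread vertically at random for visibility. The member genes lie between -0.75 and 0.66, while the Polycomb-bound regulators reach from -3.47 to 1.85.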

How the data were processed

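The deposited table holds whole-number intensities, which the authors give for each probe set on each array; they were taken as linear. The submitters' processing notes list the tools GCOS, GCRMA (2.14.1), limma (2.16.5) and R (2.8.0) with no roles; the genome build and the normalization are not given in the sources used here. Log2 values were computed with no pseudocount, and titles gave each array's genotype and replicate. Probe sets were named from the platform annotation, updated by gene identifier through RefSeq (GRCm38.p6). Probe sets with a log2 value of at least 4 on at least 3 arrays, controls left out, were tested two-sided with lmFit and eBayes of limma 3.58.1 (R 4.3.3), with Benjamini-Hochberg adjustment over 20841 probe sets; the number of arrays limits precision. The procedure was tested on simulated data in which arrays varied independently, so that test does not cover what same-numbered arrays share. No 2 arrays shared more than 1.79% of their values.

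Residuals around the genotype means correlated at 0.427, 0.354 and 0.595 between arrays that share a number in their titles, so these numbers appear to pair the samples. The main fit, with its intervals and p-values, did not use this pairing. An alternative used the numbers as a block. Named were Gsk3a, Gsk3b, all members and, from each related list, up to 4 genes that passed. Irx2 and Meis1, which also passed, were added afterwards. Alternatives covered filter, pseudocount, normalization, moderation, gene summary, the replicate number or replicate 3 as a block, and leaving out each array. The members and lists were chosen with earlier results of these data known.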

Additional observations from a re-analysis of the deposited data

How the results depend on the processing

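The counts of member probe sets and genes that passed stayed at 0 in both directions under every alternative run but 1. With the replicate block, 2 member probe sets were lower in DKO (both of Kdm6a). Leaving out each array in turn gave 0 to 0, and so did no filter, a stricter filter, pseudocounts of 1 and 16, quantile normalization, median centring, an intensity trend, replicate 3 set apart by a block, replicates 1 and 2 alone and, for genes, the mean over probe sets. The lowest adjusted p among members without the block was 0.0517, for Phc1 with no filter; its difference ran from -0.70 to -0.57 over 17 alternatives and its adjusted p from 0.0517 to 0.53. Kdm6a on its brightest probe set ran from -0.92 to -0.41. Of 657 reruns of member differences, 50, in 23 results, had the other sign, none with a call. The replicate block leaves differences as they are and removes what same-numbered arrays share. Over all probe sets it called 1995, against 675 without it, and 290 to 604 were called with an array left out, 440 in replicates 1 and 2, 373 with the stricter filter and 1117 with replicate 3 set apart. Among the Polycomb-bound regulators, Neurod1 passed in 12 of 16 alternatives (adjusted p up to 0.189), Bmp7 in 13 of 16 (up to 0.0918), Wt1 in 16 of 17 (0.0653 with no filter) and Pax6 in all 17. Dim members (Ezh1, Phf1, Ring1, and Phf19 and Cbx8 under the filter) are limited by whole-number rounding. The stricter filter left 66 of the 77 member probe sets. The alternatives for genes of the related lists were chosen after seeing the data.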

Other observations

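Phc1 lies on chromosome 6 near the pluripotency genes Gdf3, Dppa3 and Nanog in the RefSeq gene order. Among the 6 tested genes on either side of it, chosen after its values were seen, Rimklb, the next one and an amino acid ligase, was the one that passed without a block, where 4.13% of all tested genes did. With the replicate number as a block 4 of the 12 passed, against 10.7% of all. Rimklb read 80, 112 and 128 in DKO and 220, 291 and 337 in wild-type cells, a log2 difference of -1.41 (SE 0.28, limma adjusted p = 0.0288). Dppa3 differed by -1.33 (adjusted p = 0.171, and 0.00297 with the replicate number as a block), Gdf3 by -0.19 and Nanog by -0.14. On the other side M6pr, the nearest, differed by -0.03, A2m, a protease inhibitor, differed by 1.00 (adjusted p = 0.637, and 0.0317 with the block), and Bid, a BCL2 family member, read higher in DKO, at 915, 1424 and 1353 against 690, 389 and 653 (1.11, adjusted p = 0.113, and 0.0355 with the block).

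Around Kdm6a on the X chromosome, a place also chosen after its values were seen, 0 of the 12 nearest tested genes passed by limma. The share over all tested genes was 4.13%. At an unadjusted p under 0.05 there were 3, against 14.7% of all, and with the replicate block 1, against 10.7% of all. The nearest on either side, Fundc1 and Rp2, differed by -0.18 and 0.74. Efhc2 read 427, 378 and 261 in DKO and 170, 137 and 57 in wild-type cells, a difference of 1.66 (adjusted p = 0.0752, and 0.00195 with the block), opposite in sign to Kdm6a.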
